A study of Mus musculus with 14 samples.

Results

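The 5KO embryos are mouse embryos in which Tet1, Tet2, Tet3, Dnmt3a and Dnmt3b were targeted together by base editing in the zygote, and the 5 target sites were read by amplicon sequencing. Their table held 12 embryos with 60 embryo-by-gene windows, out of 78 embryos in the 6 tables of the series that share at least 1 sgRNA with it. Of the 12, 9 were edited embryos, 3 each at embryonic day 7.5 (E7.5), E8.5 and E9.5, and 3 were controls, 1 per stage. An embryo whose name held 5KO and a number was taken as edited, and an embryo whose name held 5KO and ended in C as a control. The labels name no control, and no source used here says what the C in these names stands for. The study's text describes a control beside edited embryos in this way only for Tet-TKO, so the reading is an assumption for 5KO. The 2 labelled 5KO samples carry the numbers 1 and 2, so 6 of the 9 edited embryos have a labelled number, whereas the 3 embryos with number 3 and the 3 controls have none.

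All embryos, controls included, came from B6D2F1 females mated to Oct4-EGFP males, whose strain the labels give as C57BL/6. Zygotes were injected with mRNA of the cytosine base editor hA3A-eBE3-Y130F, which joins a Cas9 nickase to an engineered human APOBEC3A deaminase and a uracil glycosylase inhibitor, and 2-cell embryos were transferred to ICR foster mothers. The study's supplementary list gives its control embryos as injected with the editor without a sgRNA, at a lower editor concentration than 5KO embryos. Whether the embryos taken as controls here belong to them is not stated. The groups that share a sgRNA with 5KO are Tet-TKO (3 Tet genes, 12 edited embryos, E7.5 to E10.5), 4KO (3 Tet genes and Dnmt1, 9 embryos, E7.5 to E9.5), 6KO (3 Tet and 3 Dnmt genes, 9 embryos, E6.5 to E8.5), Dnmt3ab-DKO (8 embryos, E9.5 and E10.5) and Dnmt-TKO (Dnmt1, Dnmt3a and Dnmt3b, 12 embryos, E6.5 to E9.5). Editing in a zygote can leave cells of 1 embryo with different alleles, and a share of reads does not show which edits lie in the same cell. How the sequenced embryos were chosen among those injected is not stated in the sources used here. Read numbers behind the 5KO shares are unknown, so no counting interval is given, and errors are the spread between embryos. The embryos of a stage may be littermates, which the sources used here do not say.

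DNMT3A and DNMT3B place new methyl groups on cytosine in DNA, mainly at CpG sites, and in the embryo they write the methylation pattern around implantation. DNMT1 copies that pattern after replication, and no sgRNA for it was injected into 5KO embryos. The 3 TET enzymes oxidise 5-methylcytosine, which opens a route to demethylation, so that the 5KO injection was aimed at the enzymes that add new methylation and at those that remove it in the same embryo. A cytosine base editor turns C into U on the strand that the sgRNA leaves unpaired, and U is read as T after replication. A CAG codon becomes the stop codon TAG in this way, and a TGG codon becomes a stop where the sgRNA lies on the opposite strand.

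The sites are shown because the position of each C in them decides which edits can be seen. Each sequence is the 20-nt protospacer followed by the 3-nt protospacer-adjacent motif (PAM), on the strand of the sgRNA, with the target C and every bystander C described below in capitals. A bystander C is a C near the target that the deaminase can also reach.
Tet1: aCaCagtCaggagaaacgcatgg
Tet2: aattCaggttCtCaacgagcagg
Tet3: ggtagaCCagaagcccgactggg
Dnmt3a: gttCCaggggtCttccttaatgg
Dnmt3b: gtatCaggtaaagcctgagaagg
Positions are counted from 1 at the first base of the protospacer, and C8T means that the reference C at position 8 was read as T. Targets are C8 in Tet1, C5 in Tet2, C8 in Tet3, C5 in Dnmt3a and C5 in Dnmt3b.

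Each of these sites had 1 exact match in the chromosomes of GRCm38, and all 26 bases of every deposited window, which adds 3 flanking bases, were equal to the genome. Annotation was taken from GENCODE M21, in the transcript with the longest complete coding sequence. The Tet1 (ENSMUSG00000047146) protospacer lies at chr10:62839073-62839092 on the minus strand in coding exon sequence (exon 4 of 13), and C8T makes the stop Q1071* in a protein of 2039 residues. The Tet2 (ENSMUSG00000040943) protospacer lies at chr3:133488137-133488156 on the minus strand in exon 3 of 12, and C5T makes Q174* of 1920 residues. The Tet3 (ENSMUSG00000034832) protospacer lies at chr6:83404641-83404660 on the minus strand in exon 4 of 12, and C8T makes Q178* of 1803 residues. The Dnmt3a (ENSMUSG00000020661) protospacer lies at chr12:3899923-3899942 on the minus strand in exon 15 of 23, while Dnmt3a itself is read from the plus strand. There C4T and C5T each turn codon 577 of 908 into a stop (W577*). The Dnmt3b (ENSMUSG00000027478) protospacer lies at chr2:153666095-153666114 on the plus strand, with 7 nt in exon 7 of 24 and 13 nt in the intron that follows, and C5T makes Q225* of 860 residues. The stop arises in every complete coding transcript of each gene, 2 each for the Tet genes, 4 for Dnmt3a and 10 for Dnmt3b.

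Nearly all reads of the 9 edited embryos carried T at every target. Over the 45 embryo-by-gene sites the T share ran from 95.5% to 99.9% with a median of 98.96%. Unconverted C lay between 0.0721% and 4.45%. In the 15 control windows the T share at the same bases ran from 0.283% to 3.97%. No edited embryo overlapped a control embryo at any of the 5 genes.

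At Tet1, whose product is abundant in early embryonic cells, the T share at C8 was 97.9%, 98.1% and 98.7% in E7.5 embryos 1, 2 and 3, then 98.96%, 99.8% and 99.2% at E8.5, and 99%, 96.3% and 95.8% at E9.5. E9.5 embryos 2 and 3 were the lowest of the 9. At Tet2 the T share at C5 was 95.5%, 98.2% and 97.4% at E7.5, 99.3%, 99.9% and 99.8% at E8.5, and 99.3%, 99% and 96.1% at E9.5. E7.5 embryo 1 and E9.5 embryo 3 were the lowest there, and all 3 E7.5 embryos lay below all 3 E8.5 embryos. At Tet3, the family member that oxidises the paternal genome of the zygote, the T share at C8 was 97.8%, 97.8% and 99.3% at E7.5, 99.4%, 99.3% and 97.2% at E8.5, and 98.3%, 98.4% and 97.8% at E9.5. The stages overlapped at Tet3.

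At Dnmt3a the T share at C5 was 99.4%, 99.2% and 99.5% at E7.5, 99.3%, 99.7% and 99.7% at E8.5, and 99.5%, 99.5% and 99.7% at E9.5. These 9 values span the narrowest range of the 5 genes, with an SD of 0.178 points, against 0.794 to 1.59 points at the other 4. At Dnmt3b, the de novo enzyme that is the more abundant in the epiblast after implantation, the T share at C5 was 97.2%, 98.7% and 98.4% at E7.5, 97.8%, 96.7% and 99.2% at E8.5, and 98.6%, 98.2% and 99% at E9.5. The lowest Dnmt3b value came from E8.5 embryo 2, which had the highest Tet1 and Tet2 values of all 9 embryos.

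**Figure D1:**
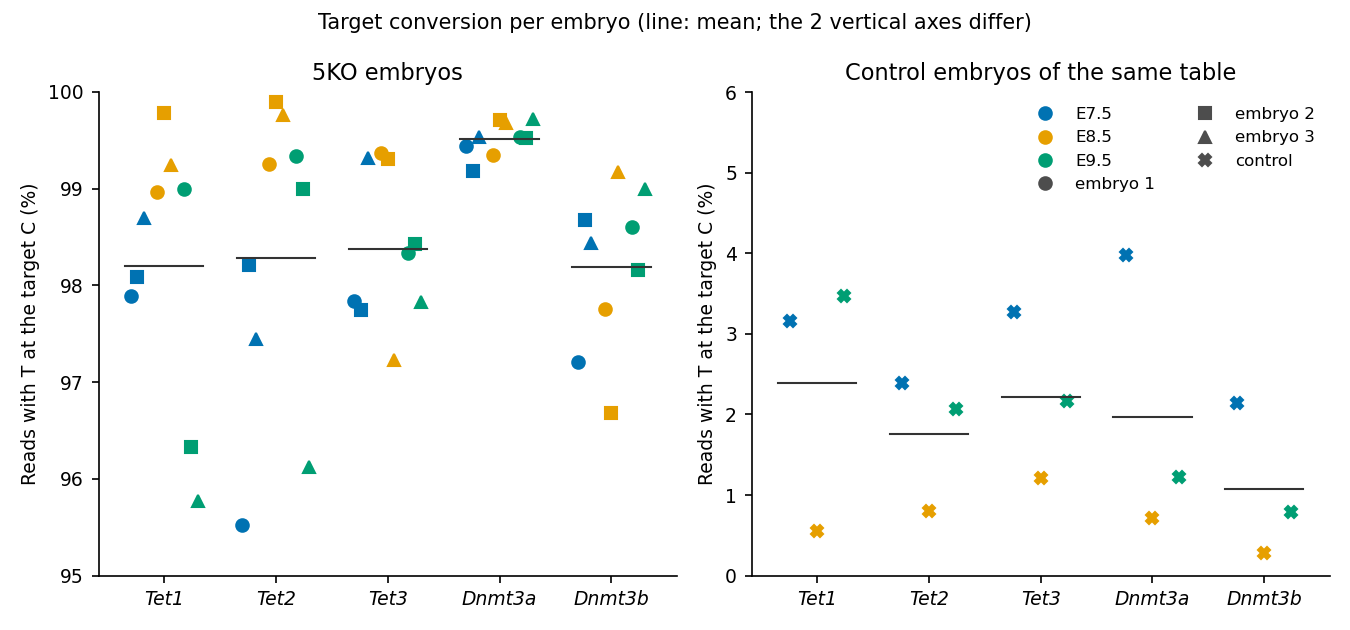
T share at the target C in percent, for the 9 edited embryos (left, axis from 95 to 100) and the 3 control embryos of the same table (right, axis from 0 to 6), by gene. Colours give the stage, symbols the embryo number and lines the mean; the Dnmt3a points lie between 99.2% and 99.7%, and the E8.5 control is the lowest control at every gene.

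The mean T share was 98.2% ± 1.35 (SD, n = 9) at Tet1 against 2.39% in the 3 controls, 98.3% ± 1.59 (SD, n = 9) at Tet2 against 1.75%, and 98.4% ± 0.794 (SD, n = 9) at Tet3 against 2.22%. It was 99.5% ± 0.178 (SD, n = 9) at Dnmt3a against 1.97% and 98.2% ± 0.828 (SD, n = 9) at Dnmt3b against 1.07%. The differences were 95.8, 96.5, 96.2, 97.5 and 97.1 points in that order. Each had p = 0.00455 and an adjusted p = 0.00455 over the 5 genes (permutation of embryos, exact and two-sided), the smallest value that the 220 assignments of 9 and 3 embryos allow. If the edited embryos were kept for their genotype, this outcome was fixed by that choice.

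T at the target was not at 0 in the controls. At Tet1 the controls had 3.16% (E7.5), 0.553% (E8.5) and 3.47% (E9.5), at Tet2 2.38%, 0.805% and 2.07%, and at Tet3 3.27%, 1.22% and 2.16%. At Dnmt3a they had 3.97%, 0.712% and 1.22%, and at Dnmt3b 2.15%, 0.283% and 0.789%. The E8.5 control was the lowest at all 5 genes. For comparison, C16 of the Tet2 window, which the table also gives with more decimals, had T in at most 0.0855% of control reads and at most 0.0940% of reads of edited embryos.

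The control reads with T were found at the same C positions as in the edited embryos. Among the 21 bystander C positions of the 5 windows, the E7.5 and E9.5 controls had a T share of at least 1% at 3, which were Tet1 C4, Tet3 C7 and Dnmt3a C4, and the E8.5 control at Dnmt3a C4 alone. The E7.5 control also had G and A at Tet3 C7 in 1% of reads each, as did the E9.5 control. The source of these reads was not tested, and no read numbers or molecular identifiers are given that could show it.

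The controls of the 5KO table were compared with those of the other tables, a comparison chosen after the values had been seen. At the Tet1 target the 3 controls averaged 2.39% against 0.241% in 10 controls of Tet-TKO, 4KO and 6KO, where the highest had 0.923% (two-sided test by exact permutation, p = 0.00699, adjusted p = 0.0117 over the 5 genes). At Tet2 they averaged 1.75% against 0.275% (same exact test, p = 0.00699, adjusted p = 0.0117), and at Tet3 2.22% against 0.130% (p = 0.00350, adjusted p = 0.0117, exact test). At Tet3 all 3 controls lay above all 10 others, whose highest value was 0.460%. At Dnmt3a the 5KO controls averaged 1.97% against 1.65% in 9 other controls (p = 0.764, adjusted p = 0.764, exact test), and at Dnmt3b 1.07% against 1.30% (p = 0.714, adjusted p = 0.764, exact test). Each group has a table of its own, so a property of the table and one of the group cannot be told apart.

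**Figure D2:**
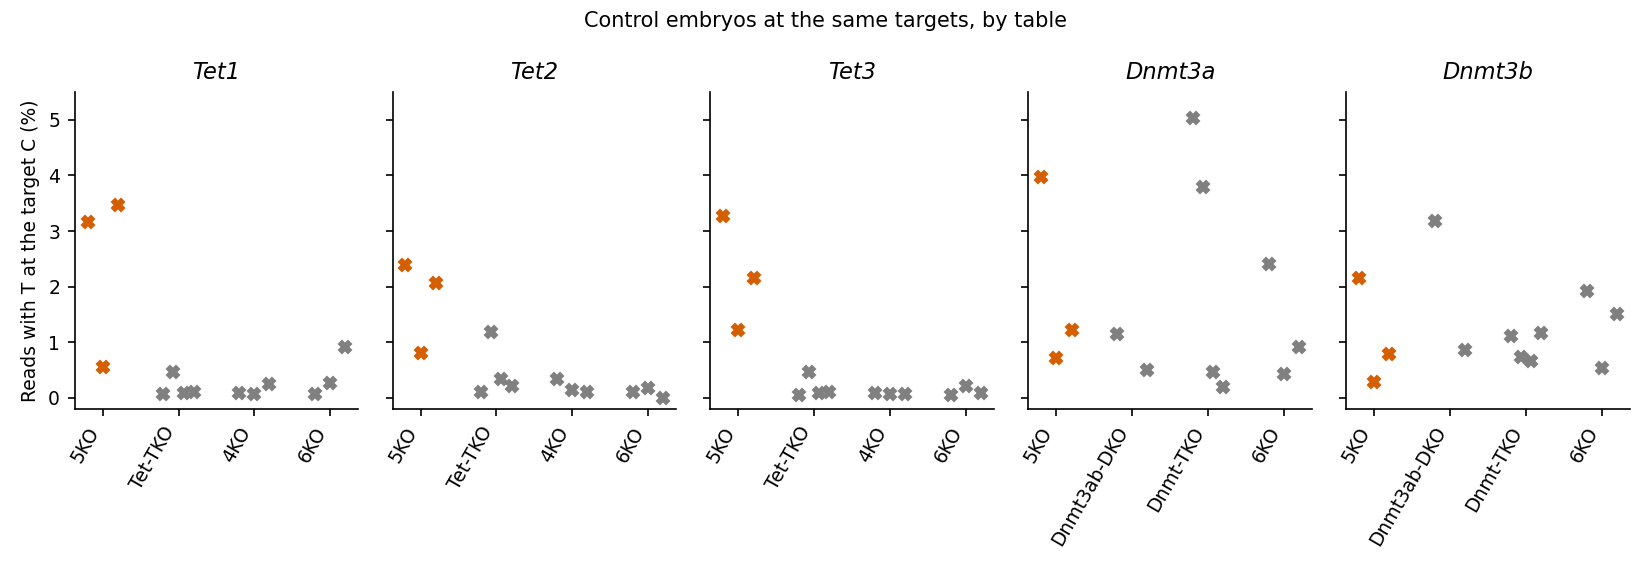
T share at the target C in percent in control embryos, by gene and table; each cross is 1 embryo, the 5KO table in orange and the others in grey. At Tet3 the 3 crosses of the 5KO table (1.22% to 3.27%) lie above all others, while at Dnmt3a and Dnmt3b the tables overlap.

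The level in the controls moved with stage in the same order as unconverted C in the edited embryos at the 3 Tet genes. Mean unconverted C at Tet1 was 1.62% at E7.5, 0.553% at E8.5 and 2.11% at E9.5 (n = 3 per stage), beside 3.16%, 0.553% and 3.47% T in the control of the stage. At Tet2 it was 2.92%, 0.337% and 1.78%, beside 2.38%, 0.805% and 2.07%, and at Tet3 1.62%, 1.24% and 1.56%, beside 3.27%, 1.22% and 2.16%. At Dnmt3a unconverted C was 0.530%, 0.299% and 0.264%, and at Dnmt3b it was highest at E8.5 (2.03%), where the control had its lowest T share. With 1 control per stage these values are a description, and their part in the comparisons below was not tested.

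Whether conversion differed between stages was asked within the edited embryos. Stage means at Tet1 ran from 97.0% (E9.5) to 99.3% (E8.5), a range of 2.29 points (exact permutation test of the between-stage sum of squares, p = 0.0893, adjusted p = 0.25). At Tet2 they ran from 97.1% (E7.5) to 99.6% (E8.5), a range of 2.58 points (same exact test, p = 0.1, adjusted p = 0.25). The ranges were 0.441 points at Tet3, 0.209 points at Dnmt3a and 0.714 points at Dnmt3b (exact test, adjusted p = 0.757, 0.5 and 0.757). No gene passed, and 0 of 5 had an unadjusted p under 0.05. With the T share of the same-stage control subtracted, the ranges of Tet1 and Dnmt3a became 5.21 and 3.46 points and both passed (adjusted p = 0.0268 and 0.0179, exact test). That subtraction takes 1 control value off all 3 embryos of a stage as if it had no error, so these passes are no test of a stage difference. Without E9.5 embryo 1, Tet1 passed as well (range 3.27 points, adjusted p = 0.0179, exact test).

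The 5 sites were read in the same embryos, so their order can be compared within each. Dnmt3a had the highest T share in 6 of 9 embryos, among them all 3 at E7.5 and all 3 at E9.5, and its mean rank was 1.44. At E8.5 the highest was Tet3 in embryo 1 and Tet2 in embryos 2 and 3. Dnmt3b had a mean rank of 3.78, the last of the 5, and was the lowest gene in 2 embryos. The gene with the lowest share changed between embryos, with Tet3 in 3 and each of Tet1, Tet2 and Dnmt3b in 2. The 5 genes of an embryo spanned between 1.2 points (E9.5 embryo 1) and 3.95 points (E9.5 embryo 3).

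Dnmt3a exceeded Dnmt3b in 9 of 9 embryos, by 1.33 points on average (exact sign-flip permutation test over embryos, two-sided, p = 0.00391, adjusted p = 0.0260 over the 10 pairs). Tet1 minus Dnmt3a was -1.32 points, with Dnmt3a higher in 8 of 9 embryos (p = 0.00781, adjusted p = 0.0260, same exact test), and Tet3 minus Dnmt3a was -1.14 points, also in 8 of 9 (p = 0.00781, adjusted p = 0.0260, exact test). Tet2 minus Dnmt3a was -1.23 points, with Dnmt3a higher in 7 of 9 (p = 0.0273, adjusted p = 0.0684, exact test). The 6 pairs among Tet1, Tet2, Tet3 and Dnmt3b did not pass, with the smallest adjusted p at 0.972. With the same-stage control subtracted, none of the 10 pairs passed. Tet1 minus Dnmt3a was then -1.75 points and Tet3 minus Dnmt3a -1.39 points, both larger in size than before (adjusted p = 0.0781 for each, exact test), while Dnmt3a minus Dnmt3b was 0.432 points (adjusted p = 0.413, exact test). Leaving out 1 embryo gave between 0 and 4 calls, and 0 in 7 of 9 cases (every embryo but E8.5 embryos 1 and 2), and Dnmt3a stayed above each of the other genes on average in all 9. Without 1 embryo the smallest p is 0.00781, and at least 2 of the 10 pairs have to pass together for any to pass. In the 7 cases Dnmt3a minus Dnmt3b stood at that smallest p (adjusted p = 0.0521, exact test), so 0 calls there is no sign of a smaller difference.

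Conversion at bystander C positions was then read. T shares at these positions are deposited to the nearest percent at all but Tet2 C16. Of the 26 C positions in the 5 windows, targets included, 7 (26.9%) had a higher T share in edited than in control embryos at an adjusted p under 0.05 (exact permutation test, adjusted over all 26). These were the 5 targets and, of the 21 bystander positions, 2, Dnmt3a C4 and Tet1 C4. A bystander is named here where T averaged at least 5% over the edited embryos or reached 10% in any of them, which gave 7 positions. The other 14 had at most 6% T in an edited embryo, and 12 of them were listed at 0 in all 9.

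Dnmt3a C4, the second C of the targeted codon, was converted together with C5. Its T share was 99% or 100% in all 9 edited embryos (mean 99.7% ± 0.5, SD, n = 9) and 4%, 1% and 1% in the E7.5, E8.5 and E9.5 controls (difference 97.7 points, p = 0.00455, adjusted p = 0.0197, exact permutation test). In no embryo did it differ from C5 by more than 0.478 points. Either change gives W577*. As both shares stood at 99% or more, with C4 rounded to 1 point, nearly every Dnmt3a read had both bases of the tryptophan codon changed.

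Tet1 C4 was converted in part, and to a different degree in each embryo. C4T leaves histidine 1069 unchanged. Its T share was 87%, 6% and 72% in E7.5 embryos 1, 2 and 3, 47%, 48% and 32% at E8.5, and 47%, 84% and 30% at E9.5 (mean 50.3% ± 26.7, SD, n = 9). The controls had 2%, 0% and 2%. The difference of 49.0 points had p = 0.00909 and an adjusted p = 0.0338 (exact permutation test), and the lowest edited embryo (6%) still lay above all 3 controls. Permuted within stage, and without any 1 of the 3 controls, neither Tet1 C4 nor Dnmt3a C4 passed, but with the smallest p of these designs at 0.0156 and 0.0182, none of the 26 positions could pass unless at least 9 and 10 of them passed together. The differences hardly moved, and without 1 control they were 48.3 to 49.3 points at Tet1 C4 and 97.2 to 98.7 points at Dnmt3a C4. Without E7.5 embryo 1, E7.5 embryo 3 or E9.5 embryo 2, Tet1 C4 did not pass either (44.4, 46.3 and 44.8 points, adjusted p of 0.0900 each, exact test). The target of the same window stood at 97.9%, 98.1% and 98.7% in the E7.5 embryos whose C4 ranged from 6% to 87%.

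**Figure D3:**
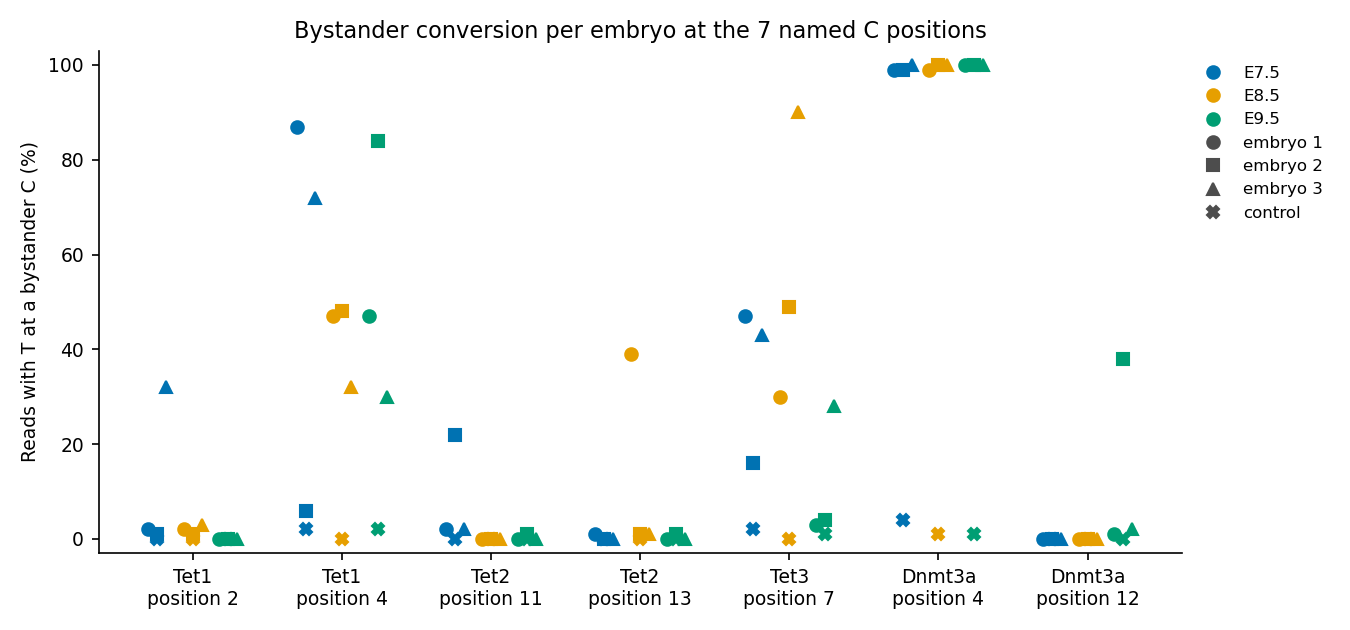
T share in percent at the 7 named bystander positions, by embryo; colours give the stage, symbols the embryo number and crosses the controls. Dnmt3a position 4 is at 99% or 100% throughout, Tet1 position 4 and Tet3 position 7 spread over most of the axis, and the other 4 positions each have 1 embryo between 22% and 39%.

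Tet3 C7, the base next to the target C8, gave T, G and A. C7T keeps aspartate 177, and C7G and C7A both make D177E, in the codon just before the stop. At E7.5, embryo 1 had 47% T, 35% G and 3% A, embryo 2 had 16% T, 72% G and 10% A, and embryo 3 had 43% T, 51% G and 1% A. At E8.5, embryo 1 had 30% T, 47% G and 19% A, embryo 2 had 49% T and 51% G, and embryo 3 had 90% T and 7% G, with A listed at 0 in the last pair. At E9.5, embryo 1 had 3% T, 94% G and 2% A, embryo 2 had 4% T, 53% G and 42% A, and embryo 3 had 28% T, 39% G and 31% A. G was the most frequent base in 7 of 9 embryos and T in 2.

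On average T made up 34.4% ± 27 (SD, n = 9), G 49.9% ± 24.1 (SD, n = 9) and A 12% ± 15.4 (SD, n = 9) of the reads at Tet3 C7, and unconverted C 3.67% ± 4.12 (SD, n = 9). G and A together, which change the amino acid, averaged 61.9% ± 28.6 (SD, n = 9). G exceeded T by 15.4 points, which the spread between embryos covers (exact sign-flip permutation test, two-sided, p = 0.383, a test added after the values were seen). At C8 of the same window, A and G together made up at most 0.292% of reads. The T share at C7 exceeded the controls by 33.4 points (p = 0.05, adjusted p = 0.163, exact permutation test) and no edited embryo overlapped a control. As T/(T+C), which leaves G and A out, the difference was 86.4 points (adjusted p = 0.0169, exact test), and on the logit scale it also passed (adjusted p = 0.0148, exact test).

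**Figure D4:**
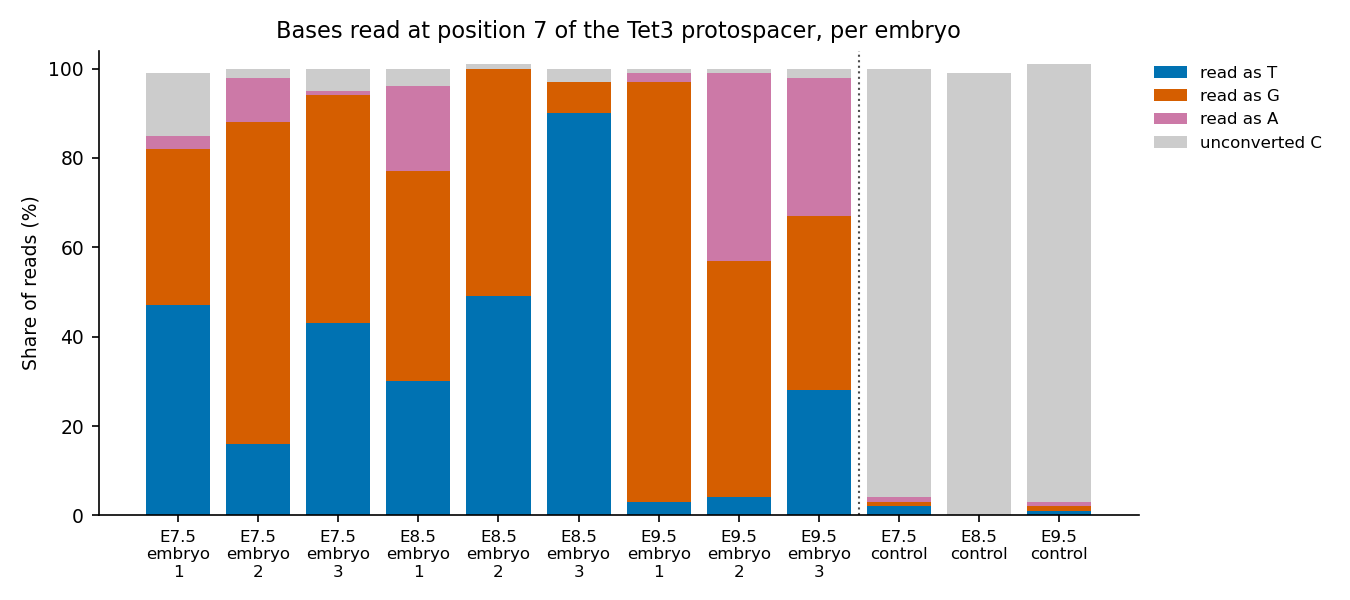
Stacked shares of reads in percent with T, G, A and unconverted C at position 7 of the Tet3 protospacer, for 9 edited and 3 control embryos; columns can add up to 99% or 101% because the shares are rounded. E8.5 embryo 3 is mostly T (90%) and E9.5 embryo 1 mostly G (94%).

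Bystander products were also compared between stages, with 3 embryos per stage, too few to exclude a difference. Of the 9 products compared, none passed (exact permutation test of the between-stage sum of squares), and 2 had an unadjusted p under 0.05, Tet2 C11T and Dnmt3a C12T (p = 0.0357 and adjusted p = 0.161 for each, exact test). Each was named only through 1 embryo, E7.5 embryo 2 (22% at Tet2 C11) and E9.5 embryo 2 (38% at Dnmt3a C12). That embryo lies in the stage with the highest mean, so neither p-value can serve as a test of stage. Tet1 C2T and Tet2 C13T were also named through 1 embryo each. At Tet3 C7 the stage means of T were 35.3%, 56.3% and 11.7% at E7.5, E8.5 and E9.5 (p = 0.125, adjusted p = 0.321, exact test), and those of A were 4.67%, 6.33% and 25% (p = 0.204, adjusted p = 0.321, exact test).

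In 4 edited embryos a bystander C that was at most 3% in the other 8 was converted in a large share of reads. E7.5 embryo 3 had 32% T at Tet1 C2 (H1069Y), where the next highest embryo had 3%. E7.5 embryo 2 had 22% T at Tet2 C11 (L176F), where the next had 2%, and E8.5 embryo 1 had 39% T at Tet2 C13 (synonymous), where the next had 1%. E9.5 embryo 2 had 38% T at Dnmt3a C12 (D575N), where the next had 2%. All 3 controls were at 0 at these 4 positions. Such values were not limited to 5KO. At Tet1 C2 the highest embryo had 45% in Tet-TKO, 38% in 4KO and 69% in 6KO. At Tet2 C11 it had 13%, 40% and 1% in the same order, and at Tet2 C13 0%, 26% and 17%. At Dnmt3a C12 it had only 3% in Dnmt3ab-DKO, 4% in Dnmt-TKO and 1% in 6KO. Tet2 C11 and C13 lie in codon 176, after the stop at codon 174, whereas the Tet1 and Dnmt3a changes fall in codons before the stop. A single embryo has no replicate, so these values are a description.

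The last 3 of these positions are distal, meaning at protospacer positions 10 to 20 or in the flanking bases. The 5 windows held 17 distal C positions. As background, APOBEC3A acts preferentially on a C that follows a T. Of the 4 distal C positions preceded by T, 3 had an embryo at 10% T or more, and the fourth, Dnmt3a C15, was listed at 0 in all 9 embryos. Of the 13 preceded by another base, 0 had such an embryo. However, the 3 positions lie at 11 to 13, and the 13 lie at 14 or later or in the flank. The base before and the position can therefore not be told apart here, and neither was tested. Outside the distal positions, Tet1 C2, Tet1 C4 and Tet3 C7 follow an A and were also converted in some or all embryos. The highest among the 13 was 6% at Tet3 C-2, in the flank, in E9.5 embryo 3, with 1% in E9.5 embryo 2 and 0 in the other 7. At Dnmt3b, C14 and C15 in the intron were at 0 in every embryo. The target C of the same reads was at 98.2% in E7.5 embryo 2 (Tet2), 99.3% in E8.5 embryo 1 (Tet2) and 99.5% in E9.5 embryo 2 (Dnmt3a).

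E9.5 embryos 2 and 3 differed from the rest in more than 1 window. Besides the distal edit at Dnmt3a C12 in embryo 2 and the flanking edit at Tet3 C-2 in embryo 3, they had the lowest Tet1 conversion of the 9. Reads with A at the Tet1 target made up 0.950% and 0.961% in these 2 embryos and 0.452% in E9.5 embryo 1, against at most 0.1% in the 6 embryos of E7.5 and E8.5 and 0.131% to 0.157% in the controls. In the Tet1 window of embryo 3, 9 of the 12 non-C positions from 10 to 23 had non-reference bases in at least 1% of reads (highest 3%), and in embryo 2 it was 5 of 12 (highest 1%). Before position 10 all non-C positions of both windows were listed at 0. Over all 936 values at non-C positions of the edited embryos, 1.82% reached 1%, and 0 of 312 did in the controls.

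Conversion in 5KO was lastly compared with the groups that received the same sgRNAs in other combinations. Editor mRNA was injected at a higher concentration in the 4KO, 5KO and 6KO groups than in the others, per the study's supplementary description, the stages differ as given above, and each group lies in its own table. These factors and the number of genes targeted cannot be told apart. Of 15 comparisons at the targets, 5 passed after adjustment (exact permutation test over embryos, two-sided).

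The 3 Tet sites were lower in 5KO than in 4KO. The differences were -1.45 points at Tet1 (98.2% ± 1.35 against 99.6% ± 0.290, SD, n = 9 and 9, adjusted p = 0.00509, exact test), -1.63 points at Tet2 (98.3% ± 1.59 against 99.9% ± 0.0152, SD, n = 9 and 9, adjusted p = 0.000411, exact test) and -1.43 points at Tet3 (98.4% ± 0.794 against 99.8% ± 0.0786, SD, n = 9 and 9, adjusted p = 0.000309, exact test). At Tet3 all 9 4KO embryos were above all 9 5KO embryos. These calls held under every alternative run for them. Subtraction of the same-stage control is no check among these, because it could only make the differences larger. Controls at the 3 Tet targets had 0.553% to 3.47% T in 5KO and 0.0726% to 0.341% in 4KO.

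At the Tet sites, 5KO and Tet-TKO embryos differed by 0.0844 points at Tet1, -0.302 points at Tet2 and -0.411 points at Tet3, none of which passed (adjusted p = 0.891, 0.692 and 0.523, exact test). Subtraction of the same-stage control turned the Tet1 difference to -2.13 points (adjusted p = 0.0588) and made that at Tet3 pass at -2.45 points (adjusted p = 0.00161, exact test). It takes 1 control value off all embryos of a stage as if free of error, so that pass is no test of the groups. The median of the Tet3 controls was 2.16% in 5KO and 0.097% in Tet-TKO. Against 6KO the differences were 1.34, 0.707 and 0.828 points at Tet1, Tet2 and Tet3 (adjusted p = 0.114, 0.609 and 0.302, exact test), and Tet1 passed when embryos were permuted within stage (1.75 points, adjusted p = 0.0125, exact test) and without E9.5 embryo 3 (1.64 points, adjusted p = 0.0343, exact test).

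Dnmt3a conversion was higher in 5KO than in 6KO and Dnmt-TKO. It exceeded 6KO by 1.86 points (99.5% ± 0.178 against 97.7% ± 0.930, SD, n = 9 and 9, adjusted p = 0.000309, exact test), with all 9 6KO embryos below all 5KO embryos, and Dnmt-TKO by 1.55 points (97.97% ± 1.55, SD, n = 12, adjusted p = 0.0123, exact test). With the same-stage control subtracted both calls were lost (1.14 and 1.95 points, adjusted p = 0.185 for each, exact test). As 1 control value is taken off all embryos of a stage as if free of error, these losses are no test of the groups either. Against Dnmt3ab-DKO the difference was 0.212 points (adjusted p = 0.868, exact test). At Dnmt3b, 5KO differed from Dnmt3ab-DKO by 0.548 points, from Dnmt-TKO by 0.162 points and from 6KO by -0.904 points (adjusted p = 0.523, 0.860 and 0.0593, exact test). The difference to 6KO passed on the logit scale (adjusted p = 0.0322) and with labelled numbers only (-1.35 points, adjusted p = 0.0108, exact test), and without E8.5 embryo 3 or E9.5 embryo 3 (adjusted p = 0.0327 and 0.0343, exact test).

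**Figure D5:**
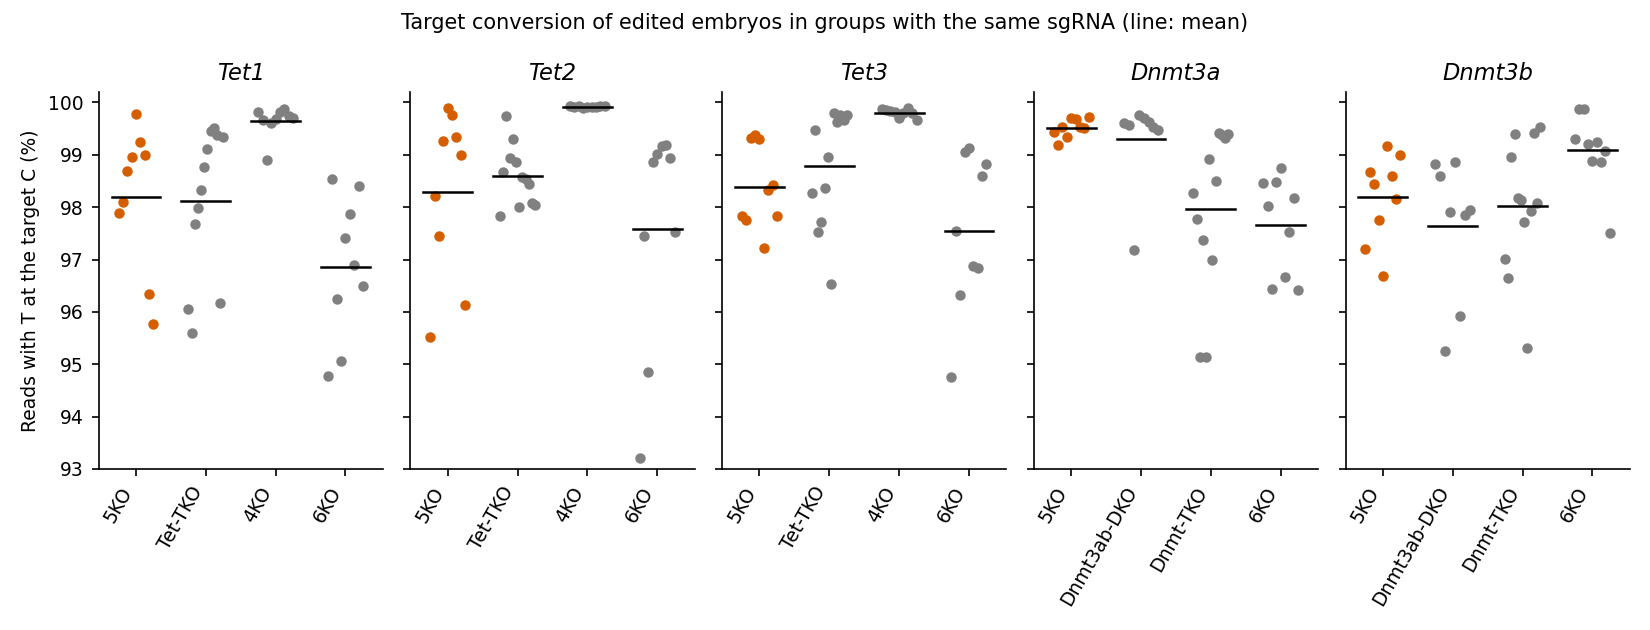
T share at the target C in percent in edited embryos of the groups with the same sgRNA, by gene (axis from 93); each point is 1 embryo, 5KO in orange, and lines give means. The 4KO points lie above most 5KO points at the 3 Tet genes, and the 6KO points at Dnmt3a lie below all 5KO points.

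Of 27 comparisons of bystander products between groups, 2 passed, both at Dnmt3a C4. T there was 99.7% ± 0.5 (SD, n = 9) in 5KO against 97.7% ± 1.12 (SD, n = 9) in 6KO (adjusted p = 0.0111, exact test) and 97.7% ± 1.61 (SD, n = 12) in Dnmt-TKO (adjusted p = 0.0234, exact test). Neither passed when embryos were permuted within stage (adjusted p = 0.162 and 0.0608) or with labelled numbers only (adjusted p = 0.117 and 0.101, exact test), and that to Dnmt-TKO was lost without E8.5 embryo 2, E8.5 embryo 3 or E9.5 embryo 2 (adjusted p of 0.0651 each, exact test). At Tet1 C4 the 5KO mean of 50.3% stood above 31.4% in Tet-TKO, 38.7% in 4KO and 34.2% in 6KO without passing (adjusted p = 0.324, 0.714 and 0.497, exact test). Tet3 C7G averaged 49.9% in 5KO against 35.4% in Tet-TKO, 46.4% in 4KO and 25.4% in 6KO (adjusted p = 0.497, 0.898 and 0.324, exact test), and C7T 34.4% against 58.0%, 37.3% and 54.7% (adjusted p = 0.368, 0.898 and 0.442, exact test). At Tet2 C13, T averaged 4.78% in 5KO, 5.44% in 4KO (1% to 26%) and 3.67% in 6KO (0% to 17%). Neither of these differences passed (adjusted p = 0.898 for each, exact test). T there was listed at 0 in all 12 Tet-TKO embryos and was above 0 in 5 of 9 5KO embryos, 4 of them at 1% (difference to Tet-TKO 4.78 points, adjusted p = 0.0557, exact test). This position was named through E8.5 embryo 1 alone (39%), and without that embryo the difference was 0.5 points. The difference passed without any 1 of E7.5 embryos 2 and 3 and E9.5 embryos 1 and 3 (adjusted p between 0.0325 and 0.0434, exact test). As these 4 were at 0, leaving 1 out could only raise the difference, so those passes add no support.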

How the data were processed

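Genomic DNA of single embryos was amplified at each target, and the amplicons were sequenced with paired reads of 150 bases. The authors deposited, as read from the values of tables without a header, the fraction of reads that showed each of the 4 bases at 26 reference positions per gene. The submitters' processing notes name the build mm10. Aligner, filters and read numbers are not given in the sources used here, and insertions and deletions have no line, so reads with them may be counted or lost. The 4 shares added up to between 99% and 101%. The Dnmt3a window was turned to the strand of the sgRNA.

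Fractions were used as percentages. Exact permutation tests over embryos (Python 3.11.15, numpy 2.4.6) were adjusted by Benjamini-Hochberg at 0.05 and tested on simulated data. Their p-values measure the spread between these embryos. Bystanders were named at a mean of 5% T or 10% in 1 embryo, and other products at a mean of 5%. Shares were kept between 0.001 and 0.999 for the logit scale. Members and lists were chosen with earlier results of these data known. Embryos without a labelled number were used, as the fit with labelled numbers only was run as an alternative. As no name in the table lacks 5KO, embryos were assumed to be controls by their final C.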

Additional observations from a re-analysis of the deposited data

Results flagged for a closer look

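For 14 targets and bystander products, the 9 edited embryos were compared with each other by Dixon's ratio at the 95% level. In 4 of the 14 an embryo lay past it. The ratio picks about 1 set in 20 by chance where values spread normally, and shares that gather at 0 do not spread in that way. All 4 were bystander products with a mean under 5%, listed only because 1 embryo had at least 10% T. The ratio thus finds again what that rule picked, and 4 of 14 cannot be read as an excess over chance. These embryos were E7.5 embryo 3 with 32% T at Tet1 C2, E7.5 embryo 2 with 22% T at Tet2 C11, E8.5 embryo 1 with 39% T at Tet2 C13 and E9.5 embryo 2 with 38% T at Dnmt3a C12. No target was among them.

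Signal outside the measured C positions was found in the Tet1 window. Over the non-C positions 10 to 23, the mean share of non-reference bases was 2.25% in E9.5 embryo 3 and 0.417% in E9.5 embryo 2, above all 3 controls. In E9.5 embryo 3, at the 11 positions from 10 to 23, C positions included, where a non-reference base reached 1%, that base was the reference base 4 positions earlier in 9 cases, and for the other shifts of up to 4 bases in at most 4. How the aligner treated such reads is not given.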

How the results depend on the processing

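All 5 target differences to the controls passed under all alternatives run for them. The 2 bystander calls against controls became 0 of 7 with labelled numbers only and 0 within stage (unadjusted p under 0.05 at 2 and 3 positions), and 0 to 2 when 1 embryo was left out (0 without any 1 control). In these smaller designs at least 7 (labelled), 9 (within stage) and 10 (without 1 control) of 26 positions would have to pass together for any to pass, so 0 calls is no sign of a smaller difference. Tet1 C4 and Dnmt3a C4 exceeded the controls by 51.8 and 97.5 points with labelled numbers and by 49.0 and 97.7 points within stage. Calls between stages went from 0 to 2 with the same-stage control subtracted, which takes 1 value off each stage as if free of error, and were 0 to 1 when 1 embryo was left out. Gene-order calls went from 3 to 0 with labelled numbers only and 0 with the control subtracted (unadjusted, 1 and 2 pairs). With labelled numbers at least 7 of the 10 pairs would have to pass together, and Dnmt3a minus Dnmt3b was 1.61, Tet1 minus Dnmt3a -1.11 and Tet3 minus Dnmt3a -0.95 points. The calls were 0 to 4 when 1 embryo was left out, where at least 2 of the 10 pairs would have to pass together. Against other groups, target calls were 5 to 7 when 1 embryo was left out. Product calls moved from 2 to 4 as T/(T+C), to 0 with labelled numbers only and to 0 within stage (unadjusted, 8 and 5 of 27), and were 1 to 3 when 1 embryo was left out. A threshold of 90% or 95% was met at 45 of 45 embryo-by-gene sites, and 99% at 20.

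Differences between groups that did not pass changed sign in places. As T/(T+C), Tet1 against Tet-TKO was -0.359 points and Tet3 C7T against 6KO 5.36 points. On the logit scale (log odds), Tet2 against Tet-TKO was 0.232 and Dnmt3b against Dnmt-TKO -0.0425. With labelled numbers only, Tet2 against Tet-TKO was 0.0583 points, Dnmt3a, Dnmt3b and Dnmt3a C4T against Dnmt3ab-DKO were -0.170, -0.197 and -0.250 points. Within stage, Tet2 against 6KO was -0.432 points and Dnmt3b against Dnmt-TKO -0.00147 points. With the control subtracted, Tet1 against Tet-TKO was -2.13 points, Tet1, Tet2 and Tet3 against 6KO were -0.632, -0.945 and -1.27 points, and Dnmt3a against Dnmt3ab-DKO -0.933 points. When 1 embryo was left out, Tet1 against Tet-TKO ran from -0.113 to 0.387 points, Tet2 against Tet-TKO from -0.503 to 0.0430 points, and Tet3 C7T and C7G against 4KO from -9.83 to 1.04 and from -2.07 to 8.81 points. The causes were not tested.

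With embryo number as a replicate block, 5 target and 2 product comparisons passed, as without it. The numbers share no litter or day in the labels, and deviations of equal numbers in 5KO and 6KO correlated at -0.428, 0.452 and -0.513 over 14 values. Read depth is unknown, and bystander shares are rounded to 1 point, which limits differences below that.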
